A study of Mus musculus with 2 samples.

Results

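The autosomal genes annotated as long intergenic noncoding RNA (lincRNA) that were most abundant in adult mouse testis are described here. They were chosen by their measured level: a gene entered when it was of type lincRNA in the GENCODE annotation, lay on an autosome and had a TPM of at least 10 in each library. TPM, the usual relative abundance of transcripts, is a level per length. This rule was met by 196 genes, called members below, of 2134 autosomal lincRNA genes and 43346 genes in all. Because the levels chose the members, they are given as a description, with no test. The RNA came from the testis of 1 adult C57BL/6J male aged 10 weeks, for which the labels name no allele, agent or treatment. Polyadenylated RNA was sequenced in 2 technical libraries, replicate 1 and replicate 2. There was 1 group and no condition, so the comparison the data allow is between the libraries, and their spread is technical, with no spread between animals.

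LincRNAs are spliced and polyadenylated like messenger RNAs but carry no long conserved reading frame, and their genes lie outside protein-coding genes. Some act in the nucleus, as Malat1 in nuclear speckles and Neat1 in paraspeckles, some bind proteins or host small RNAs, and most have no known role. The testis is known for the breadth of its noncoding transcription, above all in meiotic and postmeiotic germ cells, whose open chromatin is transcribed widely. Many mouse lincRNA names are numbers of full-length cDNA clones, and clones named like 1700016P04Rik or 4930571K23Rik came from adult testis libraries.

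The members held 12578 TPM in replicate 1 and 10631 TPM in replicate 2, which is 1.26% and 1.06% of the whole. They carried 87.0% and 79.6% of the TPM of all autosomal lincRNA genes. The libraries held 31995377 and 20675551 expected counts over all genes, and the members took 0.741% and 0.601% of them. Of 22 marker genes of testis cells, 21 reached 1 TPM in both libraries, as did 3 of 6 markers of other tissues, whose summed level was 11.3 and 25.4 TPM. The 6 spermatid markers summed to 5692 TPM in replicate 1 and 46903 TPM in replicate 2, although both came from 1 animal. That sum was carried by protamine and transition protein genes, as Prm2 at 45.4 and 15928 TPM, while Acrv1, of the acrosome, stood at 388 and 372 TPM. Some markers of other testis cells also differed. Higher in replicate 2 were Insl3 of Leydig cells (83.2 and 1630 TPM), Amhr2 of Sertoli cells (2.40 and 172 TPM) and Uchl1 of spermatogonia (7.16 and 70.8 TPM). Sycp3 of spermatocytes (807 and 263 TPM) was higher in replicate 1. Other markers of these cells did not all follow. Cyp17a1 (225 and 242 TPM) and Hsd3b1 (64.1 and 73.8 TPM) of Leydig cells were nearly even. So were Clu (836 and 1031 TPM) and Wt1 (40.8 and 38.3 TPM) of Sertoli cells. Dmrt1 of spermatogonia stood at 22.7 and 16.2 TPM. In spermatocytes Hormad1 (502 and 157 TPM) went with Sycp3, while Ldhc (2850 and 4131 TPM) did not. The part of these differences in the levels below was not tested. Both libraries are labelled as technical replicates of 1 animal, so these differences are given as differences between libraries. Within either library, a level in whole tissue does not tell the number of cells of a type from the RNA per cell.

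Names of the testis clone kind were borne by 127 members (64.8%), 83 of the form of 1700016P04Rik and 44 of the form of 4930571K23Rik. The same kind made up 39.7% of the 317 other autosomal lincRNA genes that reached 1 TPM in both libraries, and 10.2% of all 1938 other autosomal lincRNA genes. A further 53 members (27.04%) had predicted-gene names beginning with Gm, and 16 had other names. RefSeq held an entry for 165 members, of which 155 were called lncRNA there. It called 6 protein-coding, namely 4930571K23Rik, C2cd6b (as C2cd6), Gm13942 (as A26c3), 1810058I24Rik, 1810020O05Rik and D930016D06Rik (as Thoc2l). The other RefSeq types were transcribed pseudogene for 3 members and pseudogene for Gm42418.

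Sequences are shown first for the features on which the description turns: a short, very abundant transcript, the 3′ ends that polyA selection relies on, promoters shared with a coding gene, and microRNAs inside members. Gm13166 (chr4:146251829-146278434, plus strand, mm10) gave 97.0% and 97.7% of its TPM to 1 transcript of 280 bases and 2 exons, the shortest leading transcript among the 15 highest members. It is shown whole, in the GENCODE M21 sequence, because its level depends strongly on its length, as described with the levels.
Gm13166-205: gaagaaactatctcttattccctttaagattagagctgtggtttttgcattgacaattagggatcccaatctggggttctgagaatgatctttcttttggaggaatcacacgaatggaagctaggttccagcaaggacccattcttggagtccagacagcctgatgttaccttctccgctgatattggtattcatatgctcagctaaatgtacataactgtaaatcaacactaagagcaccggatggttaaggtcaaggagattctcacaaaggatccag

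The last 50 bases of the leading transcript, meaning the transcript with the highest mean TPM of a gene, follow for 6 high members. Capitals mark a polyadenylation signal, AATAAA or its common variant ATTAAA, on the sense strand. The first 4 hold one and the last pair hold none. The genes lie at chr6:13413337-13415996 (1700016P04Rik, plus strand), chr19:5795690-5802672 (Malat1, minus), chr12:7372039-7380330 (1700101O22Rik, minus), chr5:82122408-82124713 (1700031L13Rik, minus), chr17:49112263-49113535 (1700008K24Rik, minus) and chr12:52599981-52602322 (1700031P21Rik, minus), all in mm10.
1700016P04Rik-201: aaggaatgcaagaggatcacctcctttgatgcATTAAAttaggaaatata
Malat1-201: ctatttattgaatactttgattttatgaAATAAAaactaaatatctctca
1700101O22Rik-201: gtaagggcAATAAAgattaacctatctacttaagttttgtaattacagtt
1700031L13Rik-201: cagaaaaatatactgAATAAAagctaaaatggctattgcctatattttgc
1700008K24Rik-202: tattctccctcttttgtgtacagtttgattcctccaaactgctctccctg
1700031P21Rik-202: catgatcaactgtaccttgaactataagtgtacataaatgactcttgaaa

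Either signal was present in the last 50 bases of 116 of the 192 members with a sequence (60.4%), AATAAA in 93 and ATTAAA alone in 23. The share was 62.5% among the other lincRNA genes at 1 TPM or more, 46.0% among all other autosomal lincRNA genes and 73.1% among 6051 protein-coding genes at 10 TPM or more. So the members resembled other detected lincRNA genes in this feature and lay below coding genes. A missing match says only that these letters are not in this window of this transcript model.

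Promoter windows are shown for members whose start faces away from the start of a coding gene, where 1 stretch of DNA lies between both transcripts. Each runs from 250 bases before to 50 bases after the RefSeq start (GRCm38.p6). Capitals mark letters of the cAMP response element (TGACGTCA, bound by CREB and CREM, the latter a regulator of spermatid genes), of the core bound by A-MYB (GGCNGTT, a regulator of meiotic genes) or of the site bound by RFX factors (GTTGCCA), on either strand. The windows lie at chr6:30304365-30304664 (1700095J07Rik, plus strand, beside Ube2h), chr1:57377495-57377794 (4930558J18Rik, minus, beside 1700066M21Rik), chr3:156561697-156561996 (4930570G19Rik, minus, beside Negr1) and chr3:94412906-94413205 (1700040D17Rik, minus, beside Tdrkh).
1700095J07Rik: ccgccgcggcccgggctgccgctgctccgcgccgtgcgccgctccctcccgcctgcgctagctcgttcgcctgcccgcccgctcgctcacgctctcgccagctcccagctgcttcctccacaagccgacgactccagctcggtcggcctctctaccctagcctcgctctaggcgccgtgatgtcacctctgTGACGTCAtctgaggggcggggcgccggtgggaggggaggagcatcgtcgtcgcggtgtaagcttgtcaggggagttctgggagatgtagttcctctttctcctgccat
4930558J18Rik: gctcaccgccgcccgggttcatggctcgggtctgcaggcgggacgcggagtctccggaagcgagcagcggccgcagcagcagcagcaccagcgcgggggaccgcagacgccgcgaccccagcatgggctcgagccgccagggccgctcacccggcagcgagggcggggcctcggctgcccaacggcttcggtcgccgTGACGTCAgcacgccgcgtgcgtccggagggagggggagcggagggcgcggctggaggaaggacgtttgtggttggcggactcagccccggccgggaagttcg
4930570G19Rik: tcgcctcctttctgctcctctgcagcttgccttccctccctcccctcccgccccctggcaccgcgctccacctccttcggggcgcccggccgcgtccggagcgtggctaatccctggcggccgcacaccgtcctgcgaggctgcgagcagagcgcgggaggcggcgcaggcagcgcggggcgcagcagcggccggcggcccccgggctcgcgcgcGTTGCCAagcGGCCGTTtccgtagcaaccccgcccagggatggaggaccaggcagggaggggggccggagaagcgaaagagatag
1700040D17Rik: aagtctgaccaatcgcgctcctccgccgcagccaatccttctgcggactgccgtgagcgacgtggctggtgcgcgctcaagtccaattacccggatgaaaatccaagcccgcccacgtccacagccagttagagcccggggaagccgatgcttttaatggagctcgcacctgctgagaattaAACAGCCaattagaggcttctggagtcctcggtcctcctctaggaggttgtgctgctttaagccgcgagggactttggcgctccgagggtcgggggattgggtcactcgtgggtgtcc

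The first 2 windows hold 1 copy of TGACGTCA each. The Negr1 window holds GTTGCCA and GGCNGTT a few bases apart, and the Tdrkh window holds GGCNGTT on the other strand. RefSeq windows were matched for 137 members, and in 114 of them the start lay within 100 bases of the start of the leading transcript. Of these 114, TGACGTCA was found in 5 (4.39%, against 1.88% of all 27025 windows and 1.02% of windows of lncRNA genes). GGCNGTT was found in 23 (20.2%, against 12.0% and 11.6%) and GTTGCCA in 12 (10.5%, against 4.46% and 4.95%). The TATA box letters TATAAA were found in 13 (11.4%, against 14.2% and 15.7%). Windows of coding genes held TGACGTCA in 2.34%, GGCNGTT in 12.2% and GTTGCCA in 4.196%. A window was available for 11 members whose start faces away from a coding start within 1 kb. These 11 windows held 3 of the 5 with TGACGTCA, 3 of the 23 with GGCNGTT and 1 of the 12 with GTTGCCA. The share of TGACGTCA in members thus rests largely on windows shared with a coding start, and its share apart from them was not tested. The median window of a member held 4 CG dinucleotides, against 7 over all windows and 4 over windows of lncRNA genes. The member windows were those nearest the start of the leading transcript. The comparison windows were the first listed for each gene, chosen neither by level nor by start, so the sides are not alike. These matches are descriptions of letters, not of binding.

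Small RNAs lay inside a member on the same strand in few cases: 7 microRNA genes in 4 members and 2 small nucleolar RNA genes in 2. Gm2044 (chr7:139957005-139958039, minus strand), at 17.7 TPM in replicate 1 and 19.5 TPM in replicate 2, holds Mir202, a microRNA known from the gonads. Mir670hg (chr2:94160636-94264918, minus strand), at 36.7 and 29.9 TPM, holds Mir670 and Mir129-2, the latter a microRNA known from brain. Their mature sequences (RefSeq, GRCm38.p6) are given with the seed, bases 2 to 8, in capitals. No 2 of them share a seed.
mmu-miR-202-5p: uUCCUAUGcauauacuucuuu
mmu-miR-202-3p: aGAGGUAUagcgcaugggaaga
mmu-miR-670-5p: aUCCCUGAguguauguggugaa
mmu-miR-129-5p: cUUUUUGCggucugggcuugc

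The libraries measure polyadenylated host transcripts, not mature microRNAs. Snhg6, which belongs to a family of genes that host small nucleolar RNAs in introns, holds Snord87 and stood at 42.6 TPM in replicate 1 and 27.2 TPM in replicate 2.

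The levels of the members covered less than 2 orders of magnitude, with most near the lower end. The median was 27.4 TPM in replicate 1 (10.09 to 680) and 25.9 TPM in replicate 2 (10.0 to 796). Behind these values lay 15 to 37395 expected counts per member in replicate 1 (median 414) and 25 to 18935 in replicate 2 (median 204.5). Levels of 100 TPM or more in both libraries were reached by 16 members, 38 stayed under 20 TPM in both and the other 142 lay between. The members of highest level dominated the sum, since the top 15 by mean TPM held 41.3% of it in replicate 1 and 41.8% in replicate 2. TPM was higher in replicate 1 for 126 members and in replicate 2 for 70, and the same count was not made for other genes. Across the 196 members the libraries' TPM values correlated with a Pearson r of 0.739 on the log2 scale and a Spearman rank correlation of 0.667, values that are limited by the choice of members on both libraries.

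**Figure D1:**
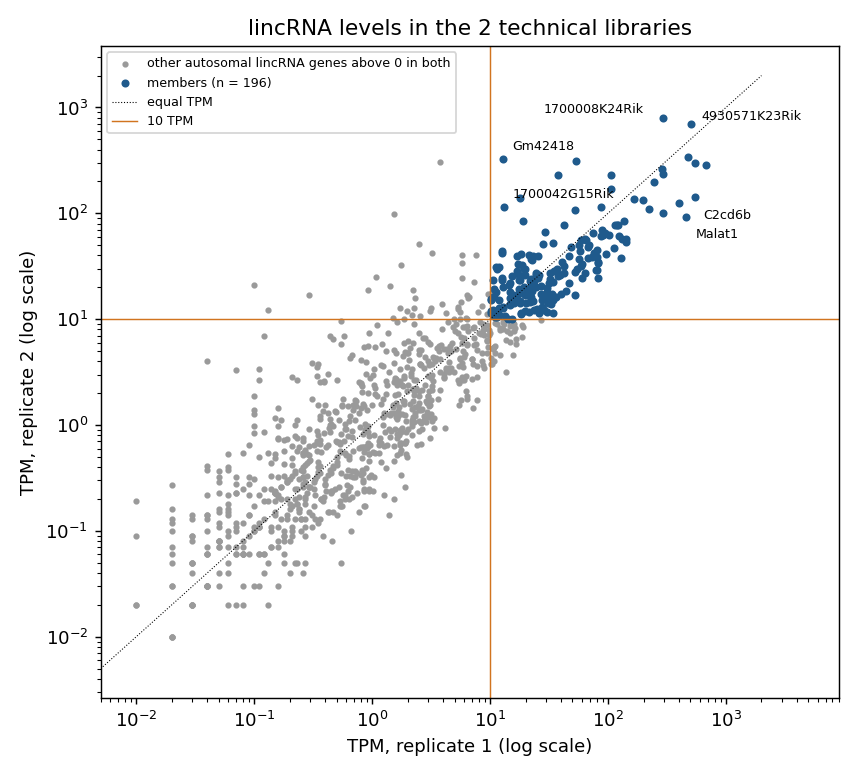
Level of each autosomal lincRNA gene in replicate 1 (x axis, TPM, log scale) and replicate 2 (y axis, TPM, log scale): blue points are the 196 members, grey points the other genes above 0 in both libraries, the orange lines mark 10 TPM and the dotted line equal values. Most members lie within a few-fold of the dotted line, while Gm42418 and 1700042G15Rik lie far above it and C2cd6b and Malat1 below it.

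The member of highest mean level was 4930571K23Rik (ENSMUSG00000090457.1, chr7:125368861-125371013, plus strand), a single-exon transcript of 2153 bases. It stood at 501 TPM in replicate 1 and 701 TPM in replicate 2 (mean 601 ± 141 TPM, SD, n = 2 technical libraries), from 21382 and 18935 expected counts. It is 1 of the 6 members that RefSeq calls protein-coding, and the longest open reading frame in the M21 transcript had 79 codons. 1700008K24Rik, of unknown role, followed with 290 TPM in replicate 1 and 796 TPM in replicate 2. 1700016P04Rik went the other way, with 680 and 285 TPM, which made it first in replicate 1 and seventh in replicate 2. Gm13166 stood at 550 and 299 TPM and 1700001L05Rik at 478 and 339 TPM. C2cd6b (chr1:58997123-59003539, minus strand), which RefSeq calls C2cd6 and protein-coding, a gene for a C2 domain protein of the sperm flagellum, stood at 542 TPM in replicate 1 and 143 TPM in replicate 2. These 6 were well above the median of coding genes at 10 TPM or more, which was 44.6 TPM in replicate 1 and 49.6 TPM in replicate 2.

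The other members of the top 15 lay between 12.8 and 462 TPM in replicate 1 and between 93.3 and 325 TPM in replicate 2. Of these, 3 were close in both libraries, namely 1700101O22Rik at 284 and 260 TPM, 1700013D24Rik at 295 and 237 TPM, and 1700031P21Rik at 246 and 199 TPM. Another 3 were higher in replicate 1, namely Malat1 at 462 and 93.3 TPM, 1700031L13Rik at 401 and 125 TPM, and 1700003P14Rik at 291 and 101 TPM. The last 3 were higher in replicate 2: 1700018B24Rik at 53.7 and 311 TPM, Gm42418 at 12.8 and 325 TPM, and 1700029M20Rik at 106 and 231 TPM. Only 9 genes were in the top 15 of both libraries, so the order of the high members is not fixed by these data.

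**Figure D2:**
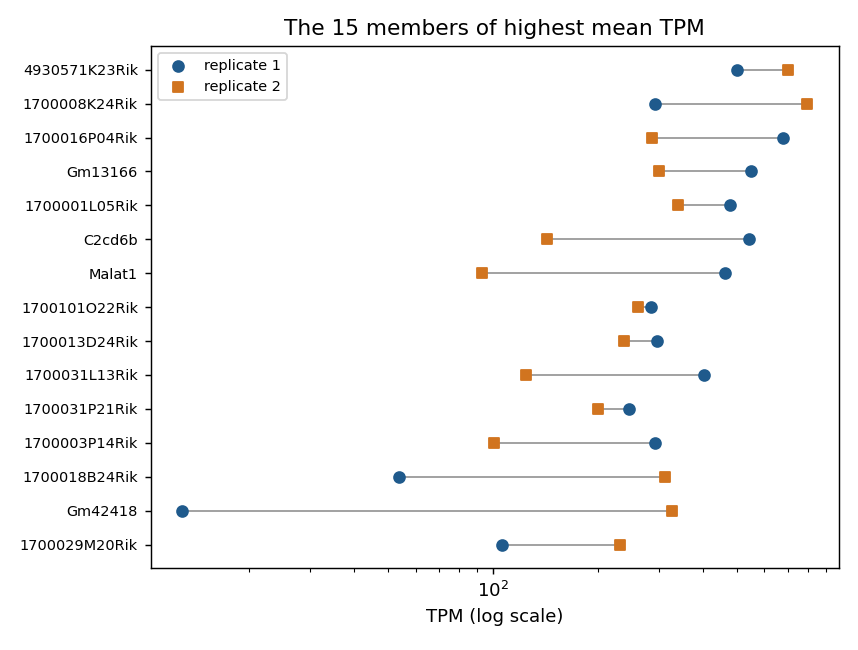
TPM (log scale) of the 15 members of highest mean level, with a circle for replicate 1, a square for replicate 2 and a line between them. The pairs of 1700101O22Rik, 1700013D24Rik and 1700031P21Rik nearly touch, while those of Gm42418, 1700018B24Rik and Malat1 are the widest apart.

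A level per length depends on the length that is used. Gm13166, with 1198 expected counts in replicate 1, and C2cd6b, with 37395, had almost equal TPM there, since the effective length (the number of positions at which a sequenced fragment could start) was 100 bases for the first and 3178 bases for the second. In members with 1 transcript, the effective length was below the transcript length by a median of 187.5 bases in replicate 1 and 179.1 bases in replicate 2, so it shrinks most, in proportion, for short transcripts such as Gm13166, 1700101O22Rik (339 bases) and 1700031P21Rik (307 bases). Malat1 (chr19:5795690-5802672, minus strand), the nuclear speckle RNA, shows the other side of this. Its full transcript Malat1-201, of 6983 bases and 1 exon, held 26.9% of the gene's TPM in replicate 1 and 68.5% in replicate 2, or 124 and 63.9 TPM. The rest of replicate 1 was assigned to a transcript of 656 bases that M21 no longer lists, at 176 TPM, and to Malat1-202 of 556 bases, at 162 TPM. Those stood at 8.56 and 11.8 TPM in replicate 2. The gene's difference of 462 against 93.3 TPM is thus made up of a moderate difference in the full transcript and a large one in the short models within it.

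Near the limit, the members whose lower TPM of the libraries was smallest were 4933402C06Rik (15.4 and 10.1 TPM), 1700012C14Rik (10.1 and 15.1 TPM) and Gm11419 (14.1 and 10.0 TPM). Just outside it were 4930526F13Rik (9.95 and 17.3 TPM), Gm15669 (26.95 and 9.89 TPM) and 4930408O17Rik (9.57 and 17.4 TPM).

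The leading transcripts of the members were short. Their median length was 715.5 bases (219 to 8300, quartiles 528.5 and 1049), against 876 bases in other lincRNA genes at 1 TPM or more, 906.5 in all other autosomal lincRNA genes and 2120 in coding genes at 10 TPM or more. TPM divides by length and chose the members, so length is not independent of the rule. The longest were 1700020I14Rik (8300 bases, 37.6 and 25.8 TPM), Malat1 and AY702103 (5876 bases, 34.4 and 52.2 TPM). The shortest were Gm26936 (219 bases, 46.3 and 21.8 TPM), Gm20484 (231 bases, 12.0 and 30.9 TPM) and 1700066B17Rik (267 bases, 17.4 and 33.4 TPM). Few fragments stood behind those short ones: 69 and 25 expected counts for Gm26936, 15 and 27 for Gm20484, 64 and 76 for 1700066B17Rik. The labels give both libraries a size range of 350 to 450 bases. Leading transcripts under 350 bases were found in 9 members (4.59%), among them Gm13166, 1700101O22Rik and 1700031P21Rik of the top 15. The share was 6.62% in other lincRNA genes at 1 TPM or more. How the labelled range bears on the effective lengths of such transcripts was not tested. Leading transcripts had a median of 3 exons, and 10 of 192 (5.21%) had a single exon, among them Malat1, 4930571K23Rik and Gm42418. The most exons, 25, were in 4930579C12Rik, named here after its value was seen.

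Open reading frames were short as well. The longest one per leading transcript, from an ATG to a stop, had a median of 54.5 codons, and it reached 100 codons in 21 members (10.9%). The corresponding shares were 18.3% in other lincRNA genes at 1 TPM or more, 18.95% in all other autosomal lincRNA genes and 89.6% in coding genes at 10 TPM or more. A frame is bounded by its transcript, and the members' leading transcripts were shorter than those of each of these groups by median. The shares are not adjusted for length. In the top 15 the frames of C2cd6b (213 codons), Gm42418 (121), 1700001L05Rik (114) and 1700018B24Rik (105) passed that length. Transcript GC content had a median of 45.5%, against 46.5% in other lincRNA genes at 1 TPM or more and 47.4% in coding genes.

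A single annotated transcript was listed for 97 members (49.5%) in the authors' tables, which was a lower share than the 73.2% of other lincRNA genes at 1 TPM or more and the 82.4% of all other autosomal lincRNA genes, and above the 26.3% of coding genes at 10 TPM or more. Among the 99 members with several, the same transcript led in both libraries in 70 (70.7%). The most transcripts in the tables were 7 in Gm2694 and in AI480526 and 6 in 1700110I01Rik. 1700030N03Rik, of lower mean TPM and named here after its value was seen, also had 6. In Gm2694 (23.1 and 39.3 TPM) the lead passed from Gm2694-206, at 13.3 TPM in replicate 1 and 8.61 TPM in replicate 2, to Gm2694-207, at 2.05 and 15.9 TPM. In AI480526 (21.01 and 17.5 TPM) it passed from AI480526-207 (16.0 and 4.58 TPM) to AI480526-201 (2.10 and 5.43 TPM). 1700008K24Rik spread its level over 5 transcripts, of which 1700008K24Rik-202 held 35.7% and 40.9%. Neat1, the paraspeckle RNA, was nearly all its short form: Neat1-202 of 3004 bases held 98.7% and 92.6%, and Neat1-201 of 20771 bases, the form that builds paraspeckles, held 1.34% and 2.41% (0.30 and 0.88 TPM). The long form is known to end without a polyA tail, and these libraries were selected for polyA, so the shares are those among selected RNA. The same holds for Malat1, whose main 3′ end is also made by cleavage without a tail. The later M21 annotation lists up to 58 transcripts for 1 member, Gm29154, chosen here after its value was seen, so the count of transcripts depends on the release.

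Members were found on all 19 autosomes. The share of a chromosome's lincRNA genes that were members was highest on chromosome 6, with 19 of 95 (20%), and lowest on chromosome 11, with 10 of 172 (5.81%). Chromosome 1 held the most, 24 of 331 (7.25%). In 10 pairs the next member lay within 50 kb. Malat1 and Neat1 were 1 such pair, 22035 bases apart on the minus strand of chromosome 19.

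The nearest protein-coding gene lay at a median distance of 24315.5 bases, measured between the nearer ends of the genes, against 21575 bases for other lincRNA genes at 1 TPM or more and 23439 for all other autosomal lincRNA genes. It was within 5 kb for 62 members (31.6%), within 100 kb for 151 (77.0%) and beyond 500 kb for 10 (5.10%). In the other lincRNA genes at 1 TPM or more these shares were 35.0%, 78.2% and 1.58%. In all other autosomal lincRNA genes they were 32.6%, 77.7% and 3.25%. The nearest coding gene lay on the same strand for 76 members, head to head on the opposite strand for 59 and tail to tail for 46. The coding gene overlapped on the opposite strand for 14 members and on the same strand for 1, Gm1698, which was singled out after its values were seen. Whether counting used strand is not given in the sources used here, so reads of overlapping genes may not have been told apart. Snhg6, which overlaps Mcmdc2 on the opposite strand, and Gm2694, which overlaps Cbln1, are among those 14.

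**Figure D3:**
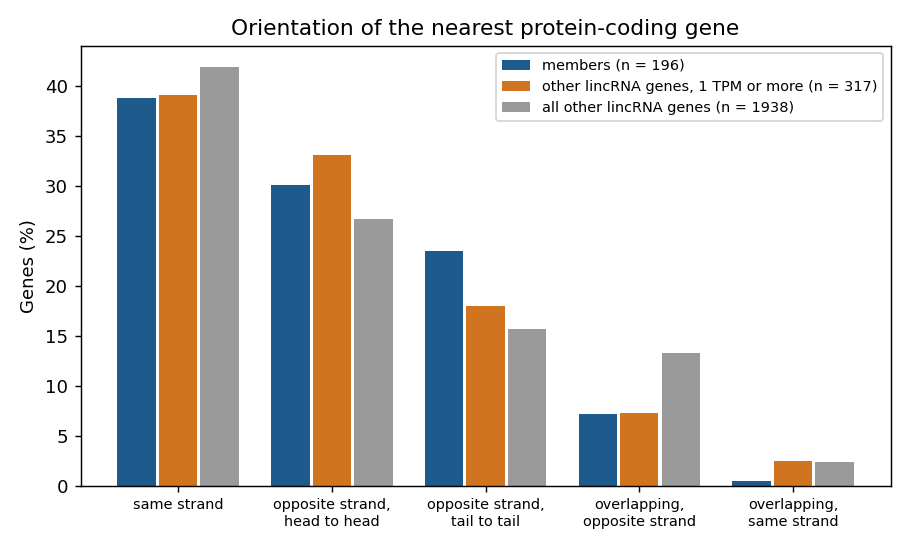
Percent of genes (y axis) by the orientation of the nearest protein-coding gene (x axis), for the 196 members (blue), the 317 other autosomal lincRNA genes at 1 TPM or more in both libraries (orange) and all 1938 others (grey). The profiles are alike for the same strand and for head to head, and the tail to tail bar is highest for the members, at 23.5% against 17.98% and 15.7%.

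Neighbouring coding genes were mostly expressed but lower than the member. Of 195 nearest coding genes in the tables, 130 (66.7%) reached 1 TPM in both libraries. The share was 65.4% for other lincRNA genes at 1 TPM or more and 60.8% for all other autosomal lincRNA genes. Among all protein-coding genes it was 54.6%. Their median was 6.84 TPM in replicate 1 and 7.56 TPM in replicate 2. The member was above its neighbour in both libraries in 124 cases and below in 54, and in 17 the order differed between the libraries. Because the members were chosen to be high, that order is a description. 1700008K24Rik lay 14675 bases from Lrfn2, which was listed at 0 in both libraries. 1700016P04Rik lay 164691 bases from Tmem168, at 20.4 and 9.13 TPM. AY702103 lay 33079 bases tail to tail from Dazl, a germ cell RNA-binding protein gene, which stood at 273 and 99.4 TPM. The members farthest from any coding gene were 1700022A22Rik (1206730 bases from Csmd3, 80.5 and 45.4 TPM), 1700018B24Rik (1134194 bases from Pcdh18) and 1700023F02Rik (754966 bases from Reep3, 101 and 63.0 TPM). Csmd3 stood at 2.27 and 2.55 TPM, Pcdh18 at 0.11 and 0.05 TPM and Reep3 at 5.56 and 3.10 TPM, so none of those 3 neighbours came near its member.

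A divergent arrangement, with the start of a coding gene within 1 kb on the opposite strand and pointing away, was found for 21 members (10.7%). It was found for 56 (17.7%) of the other lincRNA genes at 1 TPM or more and for 153 (7.89%) of all other autosomal lincRNA genes. The starts were 14 to 559 bases apart, with a median of 132. The coding partner was the higher of the pair in both libraries in 13 cases, the member in 6, and in 2 the order differed. Partners had a median of 56.1 TPM in replicate 1 and 42.8 TPM in replicate 2, and 16 of the 21 reached 10 TPM in both.

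The closest pair was 1700104B16Rik and Gtf2e2, a subunit gene of the general transcription factor TFIIE, with 14 bases between the starts. 1700104B16Rik stood at 89.2 and 69.2 TPM and Gtf2e2 at 284 and 207 TPM, so both were high in both libraries. 4932412D23Rik (122 and 76.8 TPM) was the highest of the 21 by mean and faced Zbtb20, a zinc finger repressor gene, at 4.77 and 4.03 TPM. 4930455B14Rik (130 and 56.7 TPM) faced 4930452B06Rik at 6.97 and 7.56 TPM, and 4921522P10Rik (44.4 and 18.3 TPM) faced Efnb2, an ephrin ligand gene, at 3.48 and 3.21 TPM. In those 3 pairs the noncoding side was the higher in both libraries. C030037D09Rik, at 42.7 and 77.8 TPM, and Msi2, an RNA-binding protein gene, at 66.8 and 46.7 TPM, changed order between the libraries. So did 1700046C09Rik, at 82.4 and 34.1 TPM, and Pom121l12, at 14.5 and 120 TPM.

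Other partners were far above their member. 1700086P04Rik (42.2 and 31.5 TPM) faced Rnf19b, a ubiquitin ligase gene, at 121 and 433 TPM. 4933433G15Rik (17.04 and 39.9 TPM) faced Mapk6, an atypical MAP kinase gene, at 225 and 280 TPM. 4933406C10Rik (24.4 and 25.97 TPM) faced Sypl at 153 and 102 TPM, and Gm26799 (15.2 and 25.6 TPM) faced Rad18, a DNA damage ubiquitin ligase gene needed in the germ line, at 76.4 and 42.8 TPM. Gm37294 and 4930523C07Rik were almost level, at 18.5 and 32.4 TPM against 16.95 and 30.2 TPM. 4930570G19Rik (22.4 and 19.9 TPM) stood above Negr1, a neuronal adhesion protein gene, at 0.96 and 0.45 TPM. The remaining 9 members had lower mean levels than these 12, and the last by mean was 4930426I24Rik (10.3 and 11.5 TPM), singled out after its values were seen, which faced Hspa2, a chaperone gene of meiotic germ cells, at 296 and 728 TPM. For the pairs whose promoters are printed above, Ube2h stood at 48.99 and 38.6 TPM against 23.4 and 12.1 for 1700095J07Rik. 1700066M21Rik stood at 56.1 and 20.9 TPM against 21.2 and 11.6 for 4930558J18Rik, and Tdrkh, a piRNA pathway gene, at 37.1 and 23.1 TPM against 18.5 and 11.4 for 1700040D17Rik. A window was available for 11 of the 21, and 6 of those held TGACGTCA, GGCNGTT or GTTGCCA. The printed windows were taken from those 6. Any of the 3 was held by 37 of the 114 member windows (32.5%), by 17.2% of all windows and by 16.6% of windows of lncRNA genes.

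**Figure D4:**
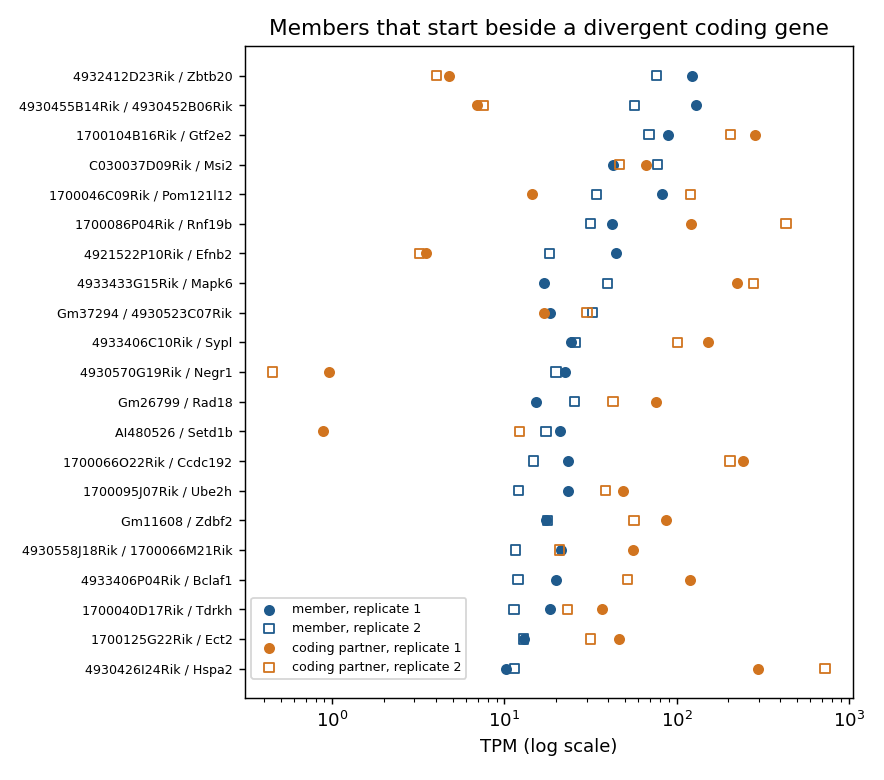
TPM (x axis, log scale) of the 21 members with a divergent coding start within 1 kb (blue) and of that coding gene (orange), 1 pair per line, in replicate 1 (filled circles) and replicate 2 (open squares), ordered by the member's mean. The members run from 10.3 to 130 TPM in replicate 1 and the partners from 0.88 to 296 TPM. The rule set the floor of the members at 10 TPM, while the partners were not chosen by level, so the ranges are not comparable.

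Some members shared sequence with other genes. In 13 members the leading transcript matched a transcript of another gene over at least 80% of its length at 95% identity or more, and in 6 of these the other gene was a member as well. Gm26715 (20.2 and 14.3 TPM) and Gm26806 (21.4 and 18.7 TPM), both on chromosome 13, were 99.3% identical over 1095 bases. Gm14144 (14.8 and 13.8 TPM) and 4930442J19Rik (52.7 and 27.7 TPM) on chromosome 2 were 99.6% identical over 1721 bases. Gm7292 on chromosome 6 (28.8 and 16.5 TPM) was 99.2% identical over 2537 bases to 2900097C17Rik on chromosome 2, known as Norad, a cytoplasmic RNA that binds Pumilio proteins, which stood at 17.6 and 25.9 TPM. The deposited posterior standard deviations of their counts were equal, 5.75 in replicate 1 and 9.60 in replicate 2. Across all members that standard deviation was above 0 in 20 and reached at most 8.64% of the count, so the deposited uncertainty of assignment was small even for near-identical members. Gm42418 (chr17:39846958-39848788, plus strand) overlaps ribosomal RNA sequence: 1244 bases matched an annotated ribosomal RNA gene at 100% identity, and RefSeq names it Rn18s-rs5, a pseudogene. Its 458 expected counts in replicate 1 and 7356 in replicate 2 therefore include sequence shared with ribosomal RNA.

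Of a list of 62 lncRNAs known from the literature, 48 were found in the tables by their M21 name, and 29 were autosomal lincRNA genes. The 5 members found by name were Malat1, Neat1 (22.6 and 36.3 TPM), Snhg6, 2900097C17Rik and Gm2044. The longest member, 1700020I14Rik (37.6 and 25.8 TPM), is on the list under its RefSeq name, Oip5os1. It was missed by the match of names and is not in these counts. The 5 found by name were 17.2% of the 29, and the members as a whole were 9.18% of all autosomal lincRNA genes. In all, 13 of the 29 reached 1 TPM in both libraries and 13 stayed under 1 TPM in both.

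The libraries were compared by the log2 ratio of replicate 2 over replicate 1, from rounded expected counts scaled by trimmed mean of M-values (TMM) with 0.5 added. With 1 library on each side there is no replicate check and no p-value. Called here means 2-fold or more. Of 18581 genes whose counts averaged at least 10, 23.9% were called higher in replicate 1 and 32.5% higher in replicate 2. Of 6706 genes of like level (at least 10 TPM in each library, of any type), 29.4% were called higher in replicate 1 and 17.5% higher in replicate 2. Of the 196 members, 56 (28.6%) were called higher in replicate 1 and 12 (6.12%) higher in replicate 2, and 128 lay within 2-fold. The share higher in replicate 1 was near that of all genes of like level, and the share higher in replicate 2 was below it. The median log2 ratio was -0.55 in members, -0.44 in all genes of like level and 0.01 in all tested genes. Scaled by plain totals the median of all tested genes was 0.29 and that of members -0.27. The split of called members was then 35 to 14, beside 15.9% and 36.4% of all tested genes. On the ratio of TPM the split was 33 to 18, with no share computed over all genes. Shares of genes of like level were computed with TMM alone. Under each of these scalings more members were called higher in replicate 1 than in replicate 2.

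The widest differences were those of few genes. Gm42418 had a log2 ratio of 4.35 (95% Clopper-Pearson interval 4.22 to 4.49, which covers counting error only). 1700042G15Rik (56 and 469 expected counts, 13.04 and 114 TPM) had 3.40 (3.01 to 3.84), 1810044D09Rik (18.1 and 140 TPM) had 2.67 and 1700009J07Rik (37.7 and 232 TPM) had 2.28. In the other direction stood C2cd6b with -2.24 (-2.27 to -2.20), Gm12434 (128 and 38.1 TPM) with -2.04, 1700121L03Rik (82.3 and 24.6 TPM) with -2.03 and 1700031L13Rik with -1.99 (-2.09 to -1.90). Counting error was smaller than the difference in 167 members, whose intervals left out 0. Intervals were computed for members alone, so no share over other genes stands beside this count. 4930571K23Rik, the member of highest mean level, was close to even at 0.17 (0.15 to 0.20).

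The ratio moved with base composition. Across the 192 members with a sequence, the Spearman rank correlation between GC content and log2 ratio was 0.788, and it was 0.855 across 6647 genes of like level, given as descriptions over genes that share both libraries. The 16 members under 40% GC had a median log2 ratio of -1.49, the 69 from 40% to 45% had -0.99, the 75 from 45% to 50% had -0.34 and the 32 at 50% or more had 0.43. Called higher in replicate 1 were 15 of the 16 members in the lowest class and 34 of the 69 in the next, and called higher in replicate 2 were 8 of the 32 in the highest. Those shares are 93.8%, 49.3% and 25%, beside 93.2%, 67.4% and 51.7% of all genes of like level in the same classes. The 4 members with the highest ratio had 60.2%, 53.9%, 52.7% and 53.4% GC, and the 4 with the lowest had 38.4%, 41.5%, 37.9% and 36.7%. The part of GC content in the differences between the libraries was not tested.

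**Figure D5:**
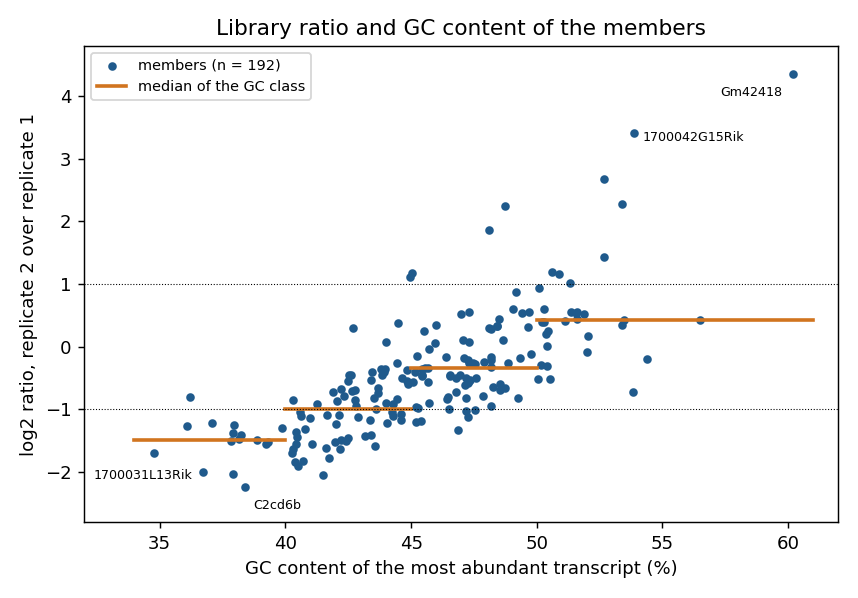
Log2 ratio of replicate 2 over replicate 1 (y axis, TMM-scaled counts) against the GC content of the leading transcript (x axis, percent) for 192 members, with the median of each GC class as an orange bar and dotted lines at 2-fold. The class medians climb from -1.49 under 40% GC to 0.43 at 50% or more, with Gm42418 at the upper right and C2cd6b at the lower left.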

How the data were processed

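Polyadenylated RNA of 1 mouse testis was sequenced in 2 technical libraries. Expected counts, TPM, FPKM and transcript percent were deposited by the authors per gene and transcript, per library, on mm10 with GENCODE M4, per the file headers and deposited notes. For the aligner and the quantifying software, a name is not given in these sources. Posterior mean TPM and posterior standard deviations of counts came from the same deposited tables.

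Genes were matched by identifier to GENCODE M21 for names, types and positions (42462 of 43346 matched, so a type is that of the later release). Sequences came from M21 transcripts (192 of 196 members), and RefSeq tables gave promoters and microRNAs (GRCm38.p6). The M21 sequence had the length of the deposited transcript in 175 members. For the rest of the 192, GC content, reading frame and last bases are those of a transcript model of another length. The members and lists were chosen with earlier results of these data known. Expected counts were rounded, scaled by TMM in edgeR 4.0.16 with 0.5 added, and called at 2-fold among genes with a mean count of 10 or more. No p-value was computed, as each side is 1 library. Intervals are 95% Clopper-Pearson, for counting error only. DESeq2 1.42.0 size factors were an alternative. The ratio step was tested on simulated data. Near-identical copies were found with BLAST 2.17.0 among M21 transcripts.

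Members named are the 15 of highest mean TPM, the 4 of largest ratio each way, the 3 longest, shortest, farthest from a coding gene and with most transcripts, up to 12 divergent ones, those on the lncRNA list and those beside the limit. Other names are marked as chosen after their values were seen or illustrate a class.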

Additional observations from a re-analysis of the deposited data

How the results depend on the processing

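The number of members stayed within 1.5 times of 196 under 9 of 10 alternatives and was 96 at a limit of 20 TPM. It was 138 with FPKM, all of them among the 196, and 182 without near-identical copies and the ribosomal member, an alternative chosen after seeing the data. Requiring 10 TPM in 1 library alone gave 234 to 240 members. Members higher in replicate 1 numbered 56, and 35 with plain totals, 33 on the ratio of TPM, 94 at 1.5-fold and 3 at 4-fold. The share of all tested genes higher in replicate 1 also fell, from 23.9% with TMM to 15.9% with plain totals. On the ratio of TPM and at the other fold limits that share was not computed. Members higher in replicate 2 numbered 12, and 5 at 4-fold. DESeq2 size factors gave the same 56 and 12 calls by count. The median length of 715.5 bases was 541.3 as effective gene length and 845.5 as longest transcript, and 712.0 to 717.5 with the leading transcript taken from 1 library. Divergent members numbered 21, 27 within 5 kb and 20 from the start of the leading transcript. The fold limits and length definitions act by construction, and the cause of the change with scaling was not tested. No paired analysis was possible because there is 1 group, and leaving out a library leaves no ratio. Depth limited short members most, where as few as 15 expected counts stood behind a level.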

Other observations

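The rule left out the sex chromosomes. On the X chromosome, 9 of 94 lincRNA genes reached 10 TPM in both libraries, led by BC061195 (614 TPM in replicate 1 and 312 TPM in replicate 2) and 1700003E24Rik (492.9 and 258 TPM), levels like those of the highest autosomal members. On the Y chromosome 3 of 549 did.

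Further autosomal lincRNA genes reached 10 TPM in 1 library only: 38 in replicate 1, with a median transcript GC content of 42.9%, and 44 in replicate 2, with 51.8%. Of these genes Gm10076 had the highest level, at 3.80 TPM in replicate 1 and 304.7 TPM in replicate 2. Gm10830 stood at 0.10 and 21.1 TPM, and Gm26917 was listed at 0 in replicate 1 and stood at 16.6 TPM in replicate 2. These 3 were singled out after their values were seen.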
